A study of Mus musculus with 44 samples.

Results

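Telomeric junctions are joins in which the read from a broken end of chromosome 2 entered telomeric repeats, directly or after inserted bases. They were measured by high-throughput genome-wide translocation sequencing (HTGTS), in which one fixed double-strand break, the bait, is sequenced together with whatever DNA, the prey, has been ligated to it. Members were chosen by the read itself: a junction counted as telomeric when the read, after its last bait base, held at least 3 tandem units of the 6-base vertebrate telomeric repeat on either strand. This rule took 5358 of the 148726 junctions in 32 libraries, which is 3.60%. Since the repeat chose the members, its presence is no finding, whereas the strand, the bait end, the position within the repeat and the number of different joins were not used in the choice.

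All cells were C57BL/6 mouse embryonic fibroblasts (MEFs) labelled wild type. AsiSI-MEFs, which carry the restriction enzyme AsiSI fused to a part of the oestrogen receptor, gave 26 libraries. In these the enzyme was induced with doxycycline at 3 µg/ml for 24 h and moved into the nucleus with 4OHT at 1 µg/ml for 6 h, and it cuts many sites besides the bait. They comprised 6 libraries with the ARP2/3 inhibitor CK-666 at 100 µM and 6 with DMSO, 2 with the N-WASP inhibitor wiskostatin at 3 µM and 2 with DMSO, 2 with actin R62D-NLS, a nuclear actin mutant that does not polymerise, and 2 with empty vector, and 3 with the DNA-PKcs inhibitor NU7441 at 10 µM and 3 with DMSO. MEFs without the AsiSI transgene, in which Cas9 cut only the bait site, gave 3 libraries with CK-666 and 3 with DMSO, with the guide transfected 48 h before lysis. NU7441 was also given for 1 h before 4OHT, and the actin vector was introduced 24 h before AsiSI expression was induced. The labels do not say whether replicates were separate cultures, whereas the legends of the paper call them biological replicates. The p-values measure the spread between these libraries. Where a test took treated and control libraries together, both of a pair counted as separate units, and its p-value may be too small. The number of junctions per library ran from 362 to 18428. The libraries came from 6 sequencing runs named in the read names, numbered 116, 118, 126, 20, 26 and 30, and both libraries of every treated and control pair shared a run.

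Telomeres are tandem repeats that cap chromosome ends and are bound by the shelterin proteins, which hide the end from the repair machinery. The repeat has a G-rich strand that runs 5′ to 3′ towards the tip and a C-rich strand that runs from the tip towards the centromere. At a chromosome end, a bait read that continues into the C-rich strand reads away from the tip, and one that continues into the G-rich strand reads towards it. Mammalian chromosomes also hold short internal stretches of the same repeat, which lie in either orientation, so there the strand does not give the direction.

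The AsiSI cut of the bait lies in mm10 on chromosome 2, after position 13271321, in exon 1 of Rsu1 (ENSMUSG00000026727), a gene on the minus strand. This exon is annotated as UTR in 3 of the 4 transcripts that cover the cut. The guide named in the methods ends before the PAM at 13271327 to 13271329 and places the Cas9 cut after 13271323, 2 bases further along. Bait ends are counted from the AsiSI cut in all libraries, so an intact Cas9 end stands 2 bases past it. The bait was read on the plus strand, and its last bases at chr2:13271302-13271327 are shown with the AsiSI motif (13271317 to 13271324) in capitals, because the results turn on where in this stretch the bait stopped.
mm10 bait: acacaccctgtcccaGCGATCGCgca

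The leading joins of the 3 libraries that stand apart and of the others are shown next, each as bait bases and any inserted bases in lower case followed by the first telomeric bases in capitals. The telomeric bases shown are 14 in each, and the form is defined by bait end, inserted bases, strand and position in the repeat.
Form a, bait end 6 bases before the AsiSI cut: acacaccctgtcccTAACCCTAACCCTA
Form b, bait end 11 bases before the AsiSI cut: caggaacacaccctAACCCTAACCCTAA
Form c, bait end 2 bases past the AsiSI cut, at the Cas9 cut: tgtcccagcgatcgACCCTAACCCTAAC
Form d, bait end 3 bases past the AsiSI cut with 6 inserted bases: gcgatcgcaggcagCCTAACCCTAACCC
Form e, bait end 1 base before the AsiSI cut: ccctgtcccagcgaACCCTAACCCTAAC
Form f, bait end 4 bases before the AsiSI cut: acaccctgtcccagACCCTAACCCTAAC
Form g, bait end 4 bases before the AsiSI cut, G-rich strand: acaccctgtcccagGGTTAGGGTTAGGG

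Form a was the most frequent, with 602 junctions in 17 libraries, followed by form b with 406 in 13. The last 3 bait bases of form a and the last 5 of form b continue the telomeric repeat backwards. At these joins the bait and the repeat share those bases and the exact crossover cannot be placed. Form c had 331 junctions in 13 libraries, form d 328 in 4, form e 130 in 14, form f 131 in 1 library, and form g, the leading G-rich join, 18 in 7.

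Telomeric junctions were found in 26 of the 32 libraries, and 3 libraries held most of them. NU7441 Rep 2 had 527 of 1331 junctions (39.6%, 95% Wilson interval 37.0 to 42.2). Cas9 DMSO Rep 2 had 1456 of 4086 (35.6%, 34.2 to 37.1), and Cas9 CK-666 Rep 2 had 2451 of 4805 (51.01%, 49.6 to 52.4). These 3 libraries held 4434 telomeric junctions, or 82.8% of all. The other 29 libraries held 924, at shares from 0 to 3.73% with a median of 0.407%. The 3 libraries did not overlap with any other and are named apart below. Wilson intervals and limits for counts of 0 cover counting error only, since PCR copies are not independent molecules.

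**Figure D1:**
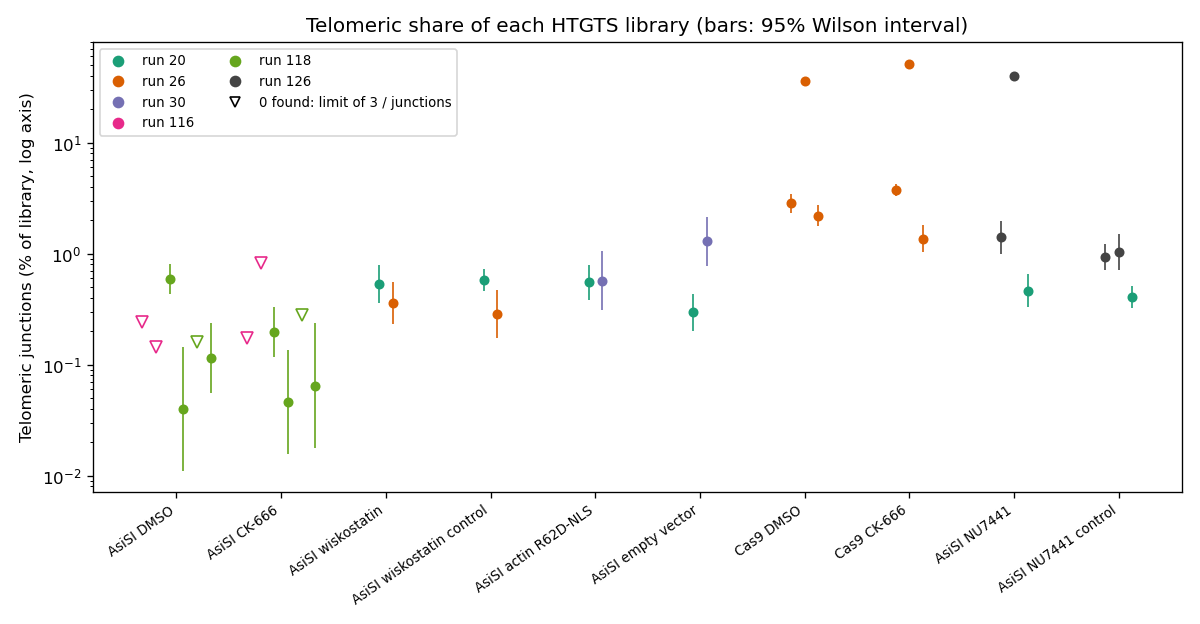
Telomeric junctions as a percent of all junctions of each library (vertical log axis) for the 10 groups (horizontal axis), with 95% Wilson intervals as bars, colours for the sequencing run and open triangles at the limit that a count of 0 allows. The 3 replicate 2 libraries of NU7441, Cas9 DMSO and Cas9 CK-666 sit between 35.6 and 51.01%, and all others at or below 3.73%.

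CK-666 was compared with DMSO on the AsiSI bait to ask whether ARP2/3 inhibition moves these joins. The DMSO libraries held 0, 0, 39, 2, 0 and 7 telomeric junctions in Reps 1 to 6, and the CK-666 libraries 0, 0, 14, 3, 0 and 2. Most of both groups' telomeric junctions thus came from the third pair, at 0.591% with DMSO and 0.197% with CK-666. Reps 1, 2 and 5 had none in either library. A count of 0 allows up to 0.241, 0.144 and 0.161% in these DMSO libraries and up to 0.173, 0.829 and 0.282% in the CK-666 libraries. The mean log2 ratio of CK-666 over DMSO was 0.13 ± 1.41 (SD, n = 6 pairs, 2-sided exact sign-flip permutation test, p = 0.844), but in the 3 empty pairs it reflects library size only. Over the 3 pairs with telomeric junctions the mean was -0.68 ± 0.84 (exact permutation p = 0.5), where the smallest possible p is 0.25. No difference was detectable at this depth.

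On the Cas9 bait, CK-666 and DMSO pairs differed by less than the replicates did. Rep 1 held 214 of 5733 with CK-666 (3.73%) and 92 of 3229 with DMSO (2.85%). In Rep 3 the order was the opposite, 49 of 3598 (1.36%) against 77 of 3492 (2.21%). Rep 2 was high in both, as given above. The mean log2 ratio was 0.07 ± 0.66 (SD, n = 3 pairs, exact sign-flip permutation p = 1, smallest possible 0.25). The direction turned when junctions within 10 kb of the bait were left out of the denominator (-0.02) or each form was counted once (-0.01). The CK-666 effect did not differ detectably between baits (AsiSI minus Cas9 0.06, exact permutation p = 0.917). Over pairs with telomeric junctions the difference was -0.75 (exact permutation p = 0.3).

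NU7441 blocks the kinase of classical end joining, and its pairs asked whether these joins change when that route is inhibited. With NU7441 the shares were 1.41, 39.6 and 0.464% in Reps 1 to 3, and with DMSO 0.929, 1.03 and 0.407%. All 3 NU7441 libraries lay above their own controls. The log2 ratios were 0.61, 5.23 and 0.20, with a mean of 2.01 ± 2.79 (SD, n = 3 pairs, exact sign-flip permutation p = 0.25, the smallest possible). Without Rep 2 the mean was 0.41. In Reps 1 and 3 the Wilson intervals of treated and control libraries overlapped. Among junctions that were not telomeric, NU7441 Rep 2 held 804, fewer than the other libraries of its group (2240 and 6644).

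Wiskostatin libraries held 24 of 4478 (0.536%) and 20 of 5537 (0.361%) telomeric junctions, against 73 of 12579 (0.580%) and 15 of 5221 (0.287%) with DMSO. The 2 pairs moved in opposite directions, with log2 ratios of -0.10 and 0.32. Actin R62D-NLS libraries held 29 of 5277 (0.550%) and 10 of 1756 (0.569%), against 25 of 8443 (0.296%) and 14 of 1087 (1.29%) with empty vector. These log2 ratios, 0.89 and -1.16, also had opposite signs. With 2 pairs no test was made.

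Telomeric joins made up a larger share of all junctions on the Cas9 bait than on the AsiSI bait. The paper reports that most prey in AsiSI-MEFs lay near other AsiSI sites. Such prey stayed in the denominator, so the share is not a rate of telomeric joining per bait break. Under DMSO the 3 Cas9 libraries lay at 2.85, 35.6 and 2.21%. The 11 AsiSI-bait libraries with DMSO lay between 0 and 1.03%, with a median of 0.287% and 3 at 0, and the baits did not overlap. The difference in mean log2 share was 5.08 (2-sided exact permutation test over 14 libraries, p = 0.00275, the smallest possible), a 33.7-fold difference with 0.5 added to each count. Without Cas9 DMSO Rep 2 it was 3.80, or 13.96-fold (exact permutation p = 0.0256). The ratio of the medians was 9.92. Only run 26 held both baits, with 1 AsiSI library with DMSO at 0.287%, and there the difference was 4.36 (exact permutation p = 0.5, where 3 against 1 cannot go below 0.25). The cutting enzyme, the transgene and the number of other breaks changed together between the 2 kinds of cells. So did guide transfection, doxycycline and 4OHT, and the time since the guide or 4OHT was given (48 or 6 h). The parts of all these cannot be told apart.

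The runs differed as well. Run 116 held no telomeric junction among 5420, which allows up to 0.0554%, and run 118 held 67 among 37287 (0.180%), both with the AsiSI bait. AsiSI-bait libraries of runs 20, 26 and 30 lay between 0.287 and 1.29%. Those of run 126, NU7441 Reps 1 and 2 and their controls, lay at 1.41, 39.6, 0.929 and 1.03%. Whether the run or the cells of these experiments set the level was not tested.

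The C-rich strand followed the bait in 5150 junctions and the G-rich strand in 208, so 96.1% of the joins were C-rich. Over the 23 libraries with at least 5 telomeric junctions the mean C-rich share was 94.1% ± 9.3 (SD), with a median of 98.0% and a lowest value of 65.2%. Every library lay above 50% (2-sided sign-flip permutation test, 100000 resamples, p = 1e-05, the smallest they can give, adjusted p = 1.5e-05 over 3 tests). In the 12 control libraries alone, which hold no treated and control pair, the mean share minus 50% was 43.3 points (sign-flip permutation p = 0.00052). Forms found in more than 1 library held 69.1% of the junctions, so libraries may not be independent units and both p-values may be too small. In NU7441 Rep 2 no G-rich join was found among 527, which allows up to 0.569%.

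G-rich joins were concentrated on the Cas9 bait. Cas9 DMSO Reps 1 to 3 held 32, 46 and 14 of them and Cas9 CK-666 37, 53 and 11. The C-rich shares of these 6 libraries were 65.2, 96.8, 81.8, 82.7, 97.8 and 77.6%. AsiSI-bait libraries held between 0 and 4 G-rich joins each. The mean C-rich share was 83.7% ± 12.3 (SD, n = 6) on the Cas9 bait and 97.8% ± 3.9 (SD, n = 17) on the AsiSI bait, a difference of -14.1 percentage points (2-sided exact permutation p = 0.000753). The 6 Cas9 libraries form 3 pairs of CK-666 and DMSO but were counted as separate units, so this p-value may be too small. This comparison was added after the strand counts were seen. With each form counted once it was -20.0 points, and without the 3 replicate 2 libraries -20.8 points. Within run 26 the 6 Cas9 libraries averaged 83.7% and both AsiSI libraries were at 100% (-16.3 points, exact permutation p = 0.143).

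The bait itself offers more shared bases to one strand than to the other. Every bait end from 20 bases before the AsiSI cut to 3 past it was combined with the 6 positions of the repeat, 144 combinations for each strand. For the C-rich strand 5 of these shared 3 or more bases with the bait, and the longest shared stretch was 5 bases. For the G-rich strand none shared 3, and the longest was 2. The ends at 6 and 11 bases before the cut, forms a and b, are among those 5. Of the C-rich joins with no inserted base 39.1% shared 3 or more bases. Without Cas9 CK-666 Rep 2 this was 18.3% of 1415. Among direct joins of either strand the share was 63.4% in Cas9 CK-666 Rep 2, 29.3% in NU7441 Rep 2, 13.1% in Cas9 DMSO Rep 2, 15.2% in the other AsiSI-bait libraries and 9.67% in the other Cas9 libraries. No G-rich direct join shared 3, and the bait offers no such end in this range.

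Joins were direct, with no base between bait and repeat, in 2666 of the 5358. The share was 70.9% in the 25 AsiSI-bait libraries other than NU7441 Rep 2, 69.4% in the Cas9 libraries other than Rep 2 and 77.0% in NU7441 Rep 2. It was 30.4% in Cas9 DMSO Rep 2 and 47.7% in Cas9 CK-666 Rep 2, where 48.3 and 35.4% of joins had 1 to 9 inserted bases. Cas9 DMSO Rep 2 owed much of this to form d, with 324 junctions or 22.3% of its telomeric junctions.

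Bait ends of direct joins were not spread like those of other junctions. In the AsiSI-bait libraries other than NU7441 Rep 2, 27.2% of 349 direct joins stopped 1 base before the AsiSI cut, 9.46% at 6 bases and 6.30% at 11. Among other junctions of those libraries, more than 10 kb from the bait, the same ends had 14.04, 2.44 and 2.32%. Here and below the other junctions include ones with inserted bases, so the sets compared differ in kind. They differ in prey as well, since most prey in AsiSI-MEFs lay near AsiSI sites, as the paper reports. Those sites carry the motif that the bait has at its cut, so the crossover at such joins cannot always be placed exactly. Outside NU7441 Rep 2, AsiSI-bait libraries had 13.6% of other junctions and 4.58% of direct joins at the motif's last base. The end 1 base before the cut was uneven between runs and libraries. It had 27 of 48 direct joins in run 118, 29 of 89 in run 126, 37 of 182 in run 20, 2 of 17 in run 26 and 0 of 13 in run 30. Within run 20 wiskostatin control Rep 1 had 11 of 45 and NU7441 control Rep 3 had 22 of 59, while wiskostatin Rep 1 had 0 of 19 and empty vector Rep 1 had 0 of 16. NU7441 Rep 2 had the same 3 ends at 35.7, 19.7 and 12.6% of 406. In Cas9 CK-666 Rep 2 the ends at 6 and 11 bases made up 65.0% of 1168 direct joins, against 12.01% of its other junctions. In the remaining Cas9 libraries pooled and in Cas9 DMSO Rep 2 the leading end lay at the Cas9 cut, 2 bases past the AsiSI cut. Other Cas9 junctions had the same leading end. This end took 42.0% of direct joins in that pool and 43.8% in Cas9 DMSO Rep 2. Within the pool it had 83 of 166 in Cas9 CK-666 Rep 1 and 13 of 29 in Cas9 CK-666 Rep 3. It had 18 of 44 in Cas9 DMSO Rep 3 and 12 of 61 in Cas9 DMSO Rep 1. In Cas9 DMSO Rep 1 it did not lead, since a form ending 3 bases past the AsiSI cut had 13. In Cas9 DMSO Rep 2 the end 4 bases before the AsiSI cut took a further 29.8%, with form f making up 131 of these 132 joins.

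**Figure D2:**
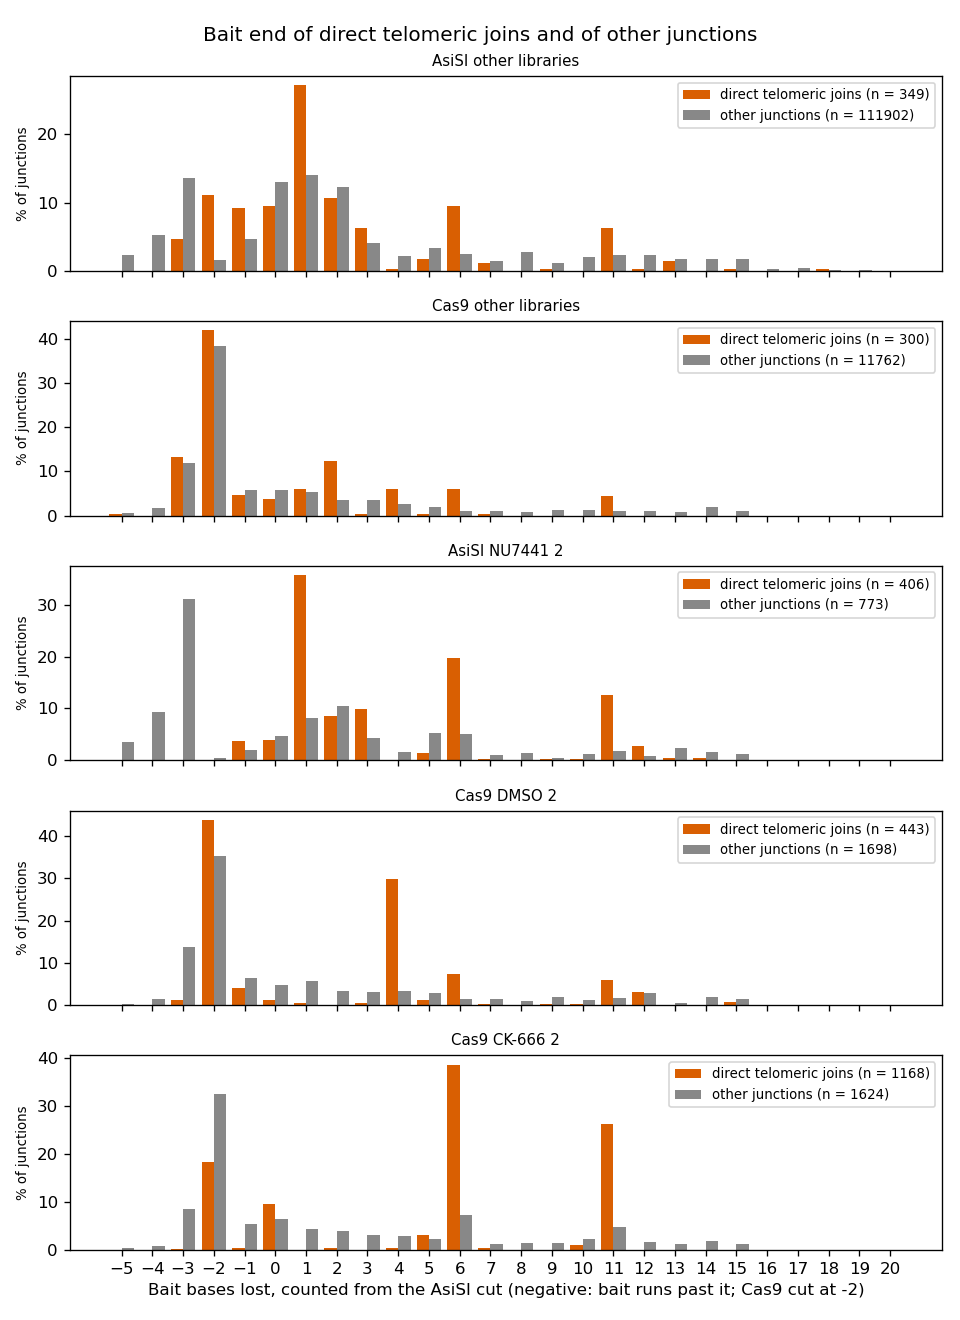
Percent of junctions (vertical axis, each panel with its own scale) by the number of bait bases lost, counted from the AsiSI cut (horizontal axis, negative where the bait ran past it, with the Cas9 cut at -2), for direct telomeric joins and for other junctions more than 10 kb from the bait, with or without inserted bases. Direct telomeric joins peak at 1, 6 and 11 lost bases in NU7441 Rep 2 and at 6 and 11 in Cas9 CK-666 Rep 2, where 65.0% of them lie.

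The bait end at telomeric joins differed from that at other junctions in both directions, depending on the library. The median number of lost bases, telomeric minus other, was higher in 9 of 23 libraries, lower in 7 and equal in the rest. Its mean was 0.07 bases ± 2.44 (SD, sign-flip permutation p = 0.936, adjusted p = 0.936). The largest difference was 7 bases, in Cas9 CK-666 Rep 2, where telomeric joins had a median of 6 and others of -1, both counted from the AsiSI cut. In the AsiSI-bait libraries of runs 118 and 126 the difference lay between 0 and 3 (mean 1.43, n = 7). In those of runs 20, 26 and 30 it lay between -4 and 2.5 (mean -1.65, n = 10) and was below 0 in 7. The mean was 1.33 on the Cas9 bait and -0.38 on the AsiSI bait, and -0.38 without the 3 replicate 2 libraries. A mean near 0 does not show equal ends. On the AsiSI bait the differences also include any effect of the motif shared with other prey, which was not tested.

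Microhomology was also counted as the overlap of the bait and prey alignments, the way it is for all HTGTS junctions. By that measure telomeric joins overlapped less often than other junctions in 22 of 23 libraries (mean difference in percentage points -25.95 ± 16.57, SD, sign-flip permutation p = 1e-05, the smallest 100000 resamples can give, adjusted p = 1.5e-05). NU7441 control Rep 2 was the exception, at 70.4 against 66.3%. The prey alignment of a telomeric read may be to a stand-in locus, as described further on. This overlap is that of the bait with the mapped locus and need not describe the telomeric join itself. Counted on the read, 65.4% of direct joins shared at least 1 base with the repeat.

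The position in the repeat at which direct C-rich joins began differed between libraries. Positions are numbered from 1 at the first C of the unit CCCTAA. All 6 occurred in the AsiSI-bait libraries other than NU7441 Rep 2, from 9.79% for position 3 to 30.3% for position 6. NU7441 Rep 2 ranged from 7.14% for position 2 to 24.4% for position 4. In Cas9 DMSO Rep 2, position 6 took 69.1% of 421, and in Cas9 CK-666 Rep 2 positions 4 and 5 took 39.8 and 49.9% of 1142. Few forms made up these shares. In Cas9 DMSO Rep 2, forms c and f had 155 and 131 of the 291 joins at position 6. In Cas9 CK-666 Rep 2, form a had 450 of the 454 at position 4 and form b 298 of the 570 at position 5. Position 6 led in the remaining Cas9 libraries pooled with 36.3% of 251, and form c in Cas9 CK-666 Rep 1 gave 64 of these 91 joins. Direct G-rich joins numbered 12 to 49 per class where present, too few for an order.

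**Figure D3:**
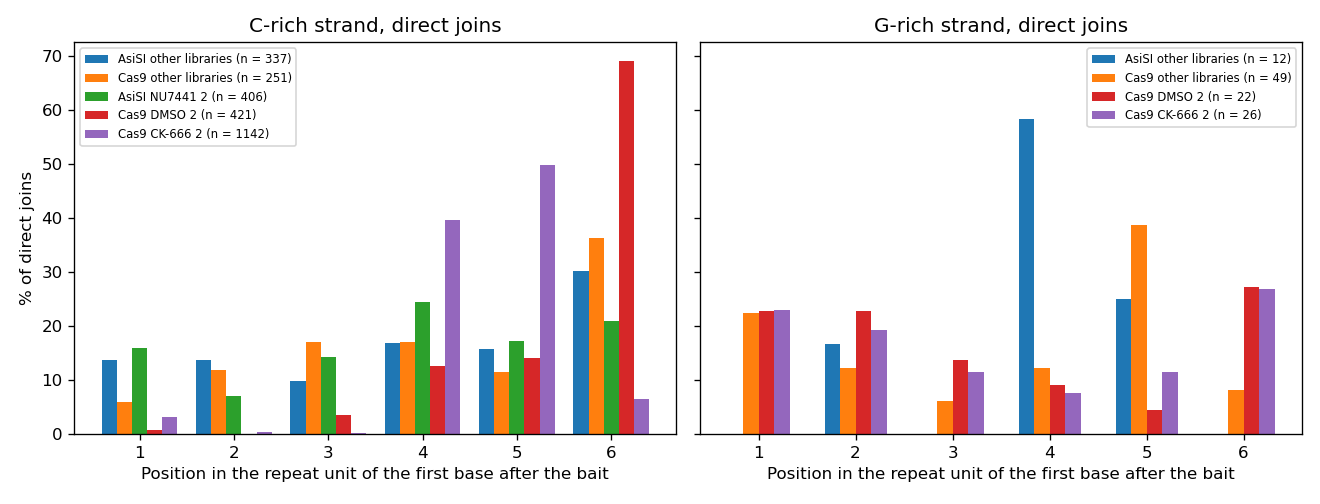
Percent of direct joins (vertical axis) by the position in the repeat unit of the first base after the bait (horizontal axis, 1 to 6), for C-rich joins (left, unit CCCTAA) and G-rich joins (right, unit TTAGGG) in 5 classes of libraries. Cas9 DMSO Rep 2 stands at 69.1% at position 6 and Cas9 CK-666 Rep 2 at 39.8 and 49.9% at positions 4 and 5 of the C-rich unit. Few forms make up most of the joins at these positions.

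The 5358 junctions fell into 1283 distinct forms, of which 997 were seen once. Distinct forms numbered 132 in NU7441 Rep 2, 454 in Cas9 DMSO Rep 2 and 614 in Cas9 CK-666 Rep 2, and from 2 to 58 in the other 23 libraries with any. Counted once per form, the telomeric share of these 3 libraries was 14.1, 14.7 and 20.7%. No other library reached more than 1.23% by that count. Each form was seen 3.99, 3.21 and 3.99 times on average in them, and between 1 and 3.69 times elsewhere. The 5 most frequent forms made up 51.2, 51.6 and 49.2% of their telomeric junctions.

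**Figure D4:**
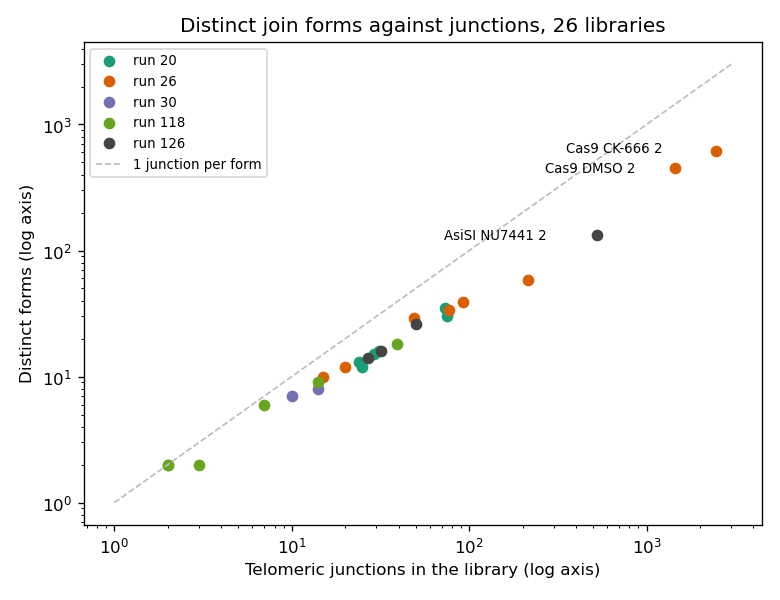
Distinct forms (vertical log axis) against telomeric junctions (horizontal log axis) for the 26 libraries with any, coloured by sequencing run, with a dashed line at 1 junction per form. The 3 labelled libraries hold 132, 454 and 614 forms, and the others 2 to 58.

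Duplicate reads had been removed before deposit, so the lengths and positions of the remaining junctions of one form may differ by that filter alone, and are given as a description. Form a of Cas9 CK-666 Rep 2 was placed at 388 mapped positions over its 450 junctions. In the 165 of these reads that reached the sequencing adapter, the DNA after the bait had 67 different lengths, from 24 to 166 bases. Form d of Cas9 DMSO Rep 2 had 38 lengths among 79 such reads.

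Only 130 forms occurred in more than 1 library, but these held 69.1% of the junctions. Forms a and b appeared in 5 and 4 of the 6 runs. Form c appeared in runs 20, 26 and 30 only, in all 6 Cas9 libraries and in 7 AsiSI-bait libraries. In AsiSI-bait libraries of run 20, 40 of 257 telomeric junctions ended 2 bases past the AsiSI cut (15.6%), whereas 0.776 to 1.47% of their other junctions did. The same end had 7 of 35 in run 26 and 4 of 24 in run 30. In run 126 it had 0 of 636, which allows up to 0.472%, and in run 118 0 of 67. This end, the Cas9 cut, is the leading one of the Cas9 bait, at 32.1 to 44.5% of other junctions.

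A second shared form ended 3 bases past the AsiSI cut with ATT inserted. It had 39 junctions in 10 libraries, namely all 6 of run 20 and 4 of the 8 of run 26, on both baits, and none elsewhere. Form d, too, was found in 2 libraries of run 26 and in both of run 30, actin R62D-NLS Rep 2 with 1 and empty vector Rep 2 with 2. Among the 2153 telomeric reads that reached the adapter, 87 had a counterpart in another library with the same form, mapped position and length. Whether forms passed between libraries was not tested.

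The repeat tracts were long for these reads. The longest exact run had a median of 7 units and reached 18. Just inside the rule, 573 junctions had a run of 3 units. Just outside it, 490 had 2 units only. From the end of the bait and any insert to the adapter or the read end, a median of 78.7% of bases lay in exact units, and 451 junctions (8.42%) had under 50%.

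Mapped prey positions may be those of a stand-in locus rather than of the DNA that was joined. The aligner placed 5355 of the 5358 on chromosomes 1 to 19, X and Y, with all 21 represented in each of the 3 libraries that stand apart. Only 11.01% of the reads aligned from bait to adapter or read end as 1 unbroken block. The mm10 assembly holds 557 arrays of 3 or more exact units, with a median of 5 units and a longest of 88, and 96.6% of telomeric junctions mapped within 200 bases of one. A prey chromosome or position below may therefore be that of an array the aligner preferred. Some reads, described at the end of these results, carried the bases beside an array. Whether a join was to a chromosome end or to an internal array was not tested. Telomeres of the cells are longer than any array in the assembly and are not unique, and the authors kept only alignments with a mapping quality above 30.

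Within 1 kb of an assembled distal chromosome end lay 575 telomeric junctions (10.7%), against 65 of 127759 other junctions (0.0509%). The repeat that chose the members also directs their alignment to arrays, so this contrast is no finding. Such ends hold 37 of the 557 arrays, on 19 chromosomes, and 21.7% of all repeat units in arrays. The share at ends was 9.55% in the AsiSI-bait libraries other than NU7441 Rep 2, 10.6% in the Cas9 libraries other than Rep 2, and 13.5, 10.6 and 10.5% in NU7441 Rep 2, Cas9 DMSO Rep 2 and Cas9 CK-666 Rep 2. It was 10.7% for C-rich and 12.5% for G-rich joins. Within 1 Mb of a distal end lay 13.6%, and the median distance was 33.9 Mb. Mouse chromosomes are telocentric, and the assembly starts well inside the other end. Within 1 Mb of that start lay 39 telomeric junctions.

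By chromosome, 13 had the most with 482, followed by 2 with 436 and 9 with 379, and Y had the fewest with 43. Over the 21 chromosomes the counts followed the number of repeat units in arrays (Spearman rho 0.73, a description, since chromosomes share libraries and aligner). In the 29 libraries outside the 3 it was 0.49.

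**Figure D5:**
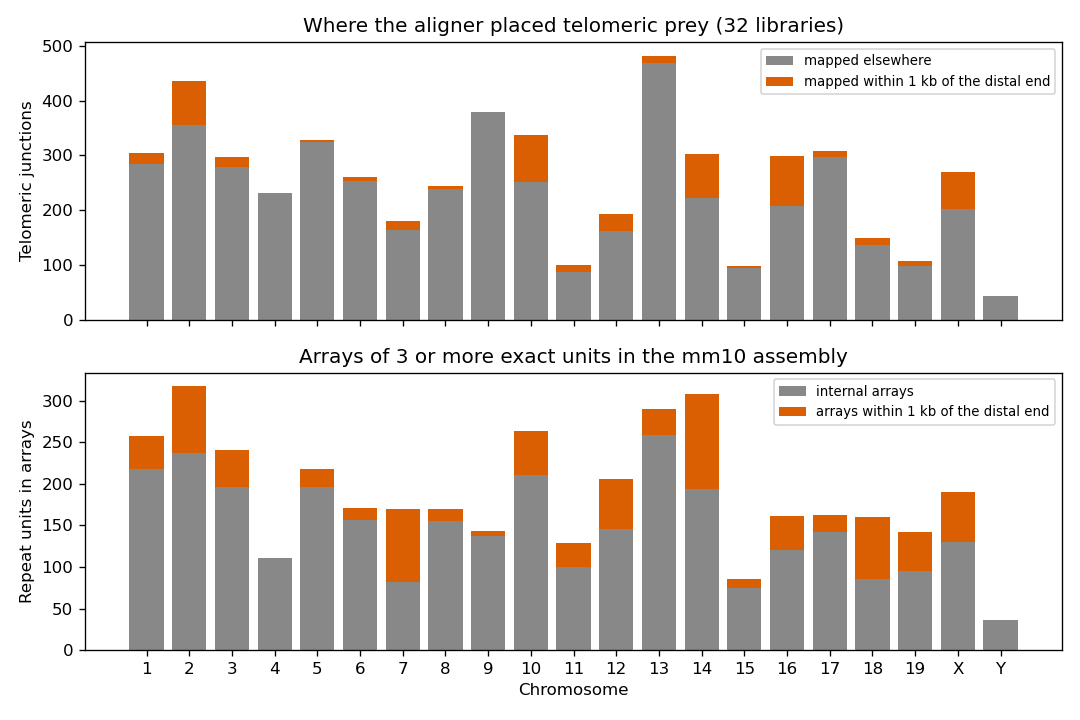
Telomeric junctions of all 32 libraries by mapped chromosome (upper panel, vertical axis in junctions) and repeat units in arrays of 3 or more exact units in mm10 (lower panel, vertical axis in units), with the part within 1 kb of the distal assembled end in colour. Chromosome 13 has 482 junctions and 290 units, and chromosome Y has 43 and 36.

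No window of 10 kb held 5% or more of all 5358 telomeric junctions, so the 2 fullest are named after their values were seen. The window at chr13:110600001-110610000 held 213 junctions (3.98%) from 18 libraries, and 6.17% of the 924 in the 29 libraries outside the 3, all 213 between 110603045 and 110603135 at an intergenic array 9.72 Mb from the distal end. The next, at chr9:113260001-113270000, held 162 (3.02%) from 19 libraries, and 5.63% of the 924, intergenic and 11.2 Mb from the end. Their mm10 bases show where array and flank meet, with 3 exact units in capitals.
chr13:110603034-110603063, plus strand: ttttagctgttaCCCTAACCCTAACCCTAA
chr9:113261439-113261468, plus strand: agcacttaagagCCCTAACCCTAACCCTAA

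Flanking bases of mm10 arrays, internal or at chromosome ends, were also sought and found on the reads. Of the telomeric junctions, 879 had 10 or more bases between bait and repeat. In 505 of them (57.5%) the 12 bases before the first whole unit equalled those before an mm10 array. These joins, 9.43% of all telomeric junctions, carried the sequence beside an array of the assembly. Flanks were sought only in the 879 and only before the repeat, so others may have been missed. Arrays can also lie close together, as the 2 between 110603046 and 110603135 on chromosome 13 do. The bases before an array may then be altered repeat, which a telomere may hold too. Such matches were not separated and no chance rate was measured, so 9.43% is neither a lower nor an upper limit. The share was 69.6% of 46 in the AsiSI-bait libraries other than NU7441 Rep 2, 59.3% of 59 in the Cas9 libraries other than Rep 2, 69.4% of 49 in NU7441 Rep 2, 50.6% of 310 in Cas9 DMSO Rep 2 and 59.5% of 415 in Cas9 CK-666 Rep 2.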

How the data were processed

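Of the 44 samples in the series, 32 are HTGTS libraries, and the 12 for Hi-C were left out. Per the paper's methods, the authors sheared the DNA by sonication, enriched bait-containing fragments by nested PCR with a biotinylated first primer, and read them on a MiSeq. Alignment to mm10 was by BWA, followed by the default filters of the HTGTS pipeline, and retained reads had a mapping quality score above 30. Versions of these tools are not given in the sources used here. The deposited tables list 1 junction per line, with duplicates removed, as alignment positions and read sequence, and hold no normalized values. Reads whose prey did not map well are not among them, so telomeric joins made of pure repeats may be counted less often than others.

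Groups and replicate numbers were taken from the labels. On each read the first run of 3 exact repeat units after the last bait base was searched on both strands and extended backwards. Bases between it and the bait were counted as inserted, and bait bases that continued the repeat as shared. A form is a bait end, strand, position in the repeat and inserted sequence. Bait ends on both baits were counted from the AsiSI cut, 5 bases into the AsiSI motif nearest the usual bait end in mm10, and the Cas9 cut lies 2 bases further. Other junctions were non-telomeric ones over 10 kb from the AsiSI cut, on assembled chromosomes (1 to 19 and the sex chromosomes). Array positions were searched in the GRCm38 (mm10) genome and genes taken from GENCODE vM21. The read search was tested on simulated reads.

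Shares were compared as log2 of (telomeric count + 0.5) over (junctions + 1). Treated and control libraries were paired by replicate number, since each pair shared a sequencing run and the study's source data scale within replicates. Correlations of paired deviations over 263 windows of 1 Mb averaged from 0.13 to 0.47 per comparison. Pairs were tested by exact sign flips (smallest p 0.03125 for 6 pairs and 0.25 for 3), and baits by exact permutation of libraries. Strand, bait loss and overlap were tested by sign flips over libraries with at least 5 telomeric junctions, with 100000 resamples and Benjamini-Hochberg adjustment over the 3. Windows of 10 kb were to be named at 5% of telomeric junctions. Alternatives changed the number of units (2 or 4), allowed 1 mismatch, required the repeat within 5 bases, changed the denominator or the added count, counted forms once, left out libraries or dropped the pairing. The members, lists and tests were chosen with earlier results of these data known. Analyses used Python 3.11.15, numpy 2.4.6, pandas 2.3.3, scipy 1.17.1 and matplotlib 3.10.9.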

Additional observations from a re-analysis of the deposited data

Results flagged for a closer look

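AsiSI DMSO Rep 3 had a telomeric share of 0.591%, far above the other 5 libraries of its group, which lay at 0.115% or lower. AsiSI CK-666 Rep 3 likewise had 0.197%, far above the other 5, at 0.0646% or lower. Both were picked out by the gap to the nearest library relative to the range of the group. The nominal rate of this criterion, about 1 in 20 groups by chance, need not hold here. Several libraries of both groups were at 0, and library sizes differed. The 2 libraries form 1 pair from run 118. Groups of 2 or 3 libraries, which include the 3 with shares of 35.6% or more, were too small for this criterion.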

How the results depend on the processing

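The larger telomeric share on the Cas9 bait and the excess of the C-rich strand kept their direction under every alternative run. So did the lower alignment overlap of telomeric reads, which is with the mapped locus and need not describe the join. The difference in share between baits passed the threshold in all but one: within the run that holds both baits, the log2 difference was 4.36 (exact permutation p = 0.5). It ranged from 3.80 to 5.81 without 1 library at a time, 3.80 being without Cas9 DMSO Rep 2, and was 3.18 with forms counted once and that library left out. The CK-666 ratio on the AsiSI bait (log2 0.13) became -0.68 without the pairs that hold no telomeric junction, and ran from -0.34 to 0.47 without 1 pair at a time. On the Cas9 bait (0.07) it became -0.017 without junctions within 10 kb of the bait, -0.011 with forms counted once, and -0.15 to 0.45 without 1 pair. The NU7441 ratio (2.01) ran from 0.41 (without Rep 2) to 2.92. The wiskostatin ratio (0.11) became -0.025 with at least 4 units and -0.10 to 0.32 from single pairs, and the actin R62D-NLS ratio (-0.13) became 0.056 with forms counted once and -1.16 to 0.89. Median bait loss (0.07 bases) became -0.068 in libraries with at least 10 telomeric junctions, -0.38 without the 3 replicate 2 libraries and -0.38 on the AsiSI bait alone, against 1.33 on the Cas9 bait alone. Without the pairing block the means were unchanged, and the exact permutation p was 0.881 for CK-666 on the AsiSI bait (log2 0.13), 1 on the Cas9 bait (0.07) and 0.4 for NU7441 (2.01). The causes of these changes were not tested beyond what each setting leaves out. Shares of libraries with few junctions are limited by depth, as their Wilson intervals show.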
